A study of Homo sapiens with 24 samples.

Results

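The lysosomal gene set described here holds 46 genes, which were chosen by name with earlier results of these data known. They are 10 cysteine cathepsin and legumain genes, 3 other protease genes, 10 glycosidase genes, 5 genes of sulfatases and sulfamidase, 5 genes of lipid and phosphate hydrolases with their activator, 7 membrane protein genes, 3 receptor genes for the sorting of hydrolases and the 3 transcription factor genes TFEB, TFE3 and MITF. Of these, 44 were measured, among 18244 genes in all. PPT2, a thioesterase gene, lay only on probe sets listed for more than 1 gene and is not analysed here, nor is 1 of the sorting receptors. The value of a gene is the mean log2 intensity of its probe sets, and 35 of the measured members had several probe sets.

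Expression was measured in 4 established human cancer cell lines, each a model grown in culture without other cell types. HGC-27 comes from gastric carcinoma, HCT-8 from colorectal carcinoma, and Huh-7 and HepG2 from hepatocellular carcinoma as the labels have it. Values listed below without line names follow the order HGC-27, then HCT-8, then Huh-7 and last HepG2. In each line, 3 arrays held RNA of wild type cells given melatonin at 2.5 mmol/L for 24 h, and 3 arrays held RNA of control cells. The labels place the controls at 0 h, whereas the methods describe controls kept in ethanol, the solvent, alongside the treated cells. Melatonin, the solvent and the time in culture therefore cannot be told apart from these labels. The methods call the arrays of a group biological replicates, but neither the methods nor the labels say whether they came from separate cultures, so the p-values measure the spread between these samples. In bulk RNA, a change in the number of cells that express a gene cannot be told apart from a change of RNA per cell.

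The array medians lay between 2.13 and 3.33 and differed more between lines than within one, so levels were compared within a line and only differences between lines. HepG2 melatonin replicate 1 stood apart: its correlation over genes with the other HepG2 arrays was 0.938 to 0.953, against at least 0.975 for any other pair of arrays of a line, and for ACTB the gap between the control probe sets of the 3′ and the 5′ end was 8.34 log2 units there, whereas it lay between 0.081 and 0.718 elsewhere. HepG2 counts are therefore given with and without that array, as are the HepG2 values of the members described array by array. All 7 hepatocyte markers measured lay above the median of all genes in the Huh-7 and HepG2 controls, and all 8 gut epithelium markers did so in the HCT-8 controls. Of these gut markers, 6 lay above it in Huh-7 and 3 in HepG2 controls. In the HGC-27 controls, 0 of 5 stomach epithelium markers and 1 of 8 gut epithelium markers lay above that median. Of 8 leukocyte markers, 0 in HGC-27 and HCT-8 and 1 in Huh-7 and HepG2 controls lay above it. Markers of several cell types also changed with melatonin in Huh-7 cells, where 27.4% of all genes were lower and 23.8% higher. Of 7 hepatocyte markers 4 were lower and 1 higher, of 8 gut markers 4 lower and 1 higher, and of 8 leukocyte markers 4 lower. Of 5 stomach markers 2 were lower, and of 4 mesenchymal markers 3 were higher. In HCT-8 cells, where 15% of all genes were lower and 16.6% higher, 4 of 8 gut markers were lower. Of the hepatocyte, stomach and leukocyte markers 1 each was lower there, and 1 mesenchymal marker was higher. HGC-27 cells had 1 gut and 1 mesenchymal marker higher, and HepG2 cells 1 hepatocyte marker lower. The part of these markers in the results was not tested.

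Lysosomes are acidic organelles in which hydrolases break down proteins, sugar chains, lipids and other molecules that arrive by endocytosis or autophagy. Most soluble hydrolases receive a mannose 6-phosphate tag in the Golgi apparatus, and receptors that bind the tag carry them to endosomes. Genes of hydrolases and of lysosomal membrane proteins often carry a palindromic E-box upstream, to which the transcription factors TFEB, TFE3 and MITF bind, and these factors are held in the cytoplasm when mTORC1 on the lysosomal surface is active.

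Lysosomal genes were more often higher than lower with melatonin in 3 of the 4 lines. In this text a gene is called higher or lower where its adjusted p in limma was at or below 0.05, with Benjamini-Hochberg adjustment over all 18244 genes within a line. In HGC-27 cells, 20 of 44 members were higher (45.5%) and 6 lower (13.6%), against 20.9% and 18.6% of all genes. In HCT-8 cells, 17 were higher (38.6%) and 4 lower (9.09%), against 16.6% and 15% of all genes. In Huh-7 cells, 23 were higher (52.3%) and 6 lower (13.6%), against 23.8% and 27.4% of all genes. HepG2 cells gave 1 higher and 1 lower member with all arrays, 2.27% each, against 3.87% and 3.68% of all genes. Without HepG2 melatonin replicate 1, the HepG2 counts were 19 higher (43.2%) and 5 lower (11.4%), against 16.5% and 14.9% of all genes. The shares of members called higher were thus above the background in each comparison but the one of all 6 HepG2 arrays, and the shares called lower were below it in every comparison. As the members were chosen with earlier results of these data known, these shares describe the set and are not an independent test.

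**Figure D1:**
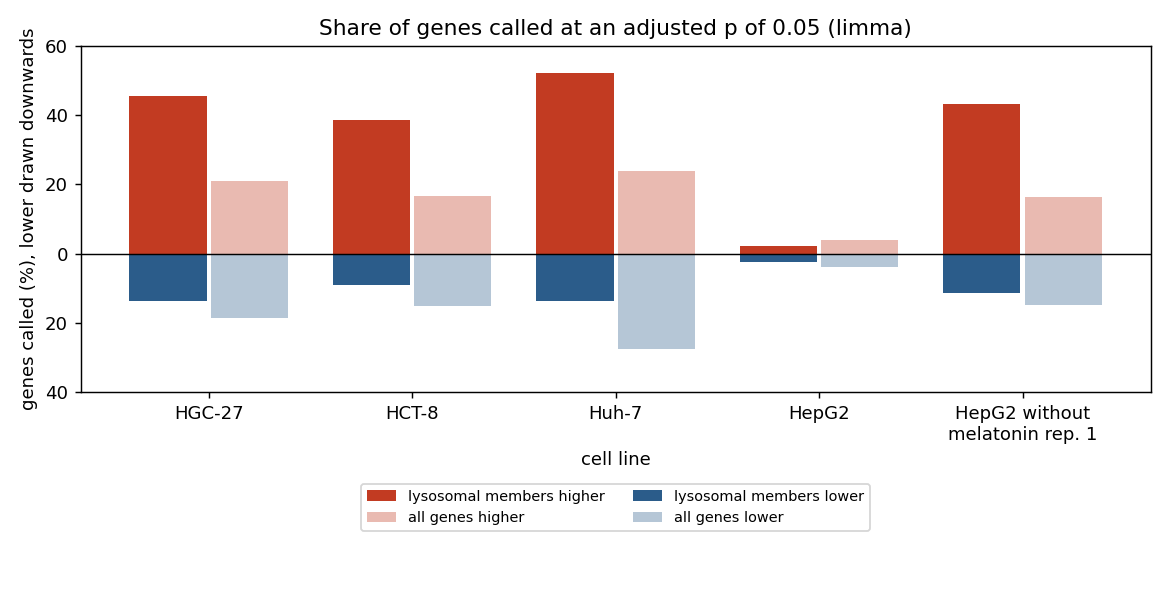
Share of genes called at an adjusted p of 0.05 in limma, in percent, with melatonin higher drawn upwards and melatonin lower drawn downwards. Dark bars are the 44 lysosomal genes and pale bars all 18244 genes, for each line and for HepG2 cells without melatonin replicate 1. The dark upward bars reach 45.5% in HGC-27 cells, 38.6% in HCT-8 cells and 52.3% in Huh-7 cells, and in HepG2 cells they go from 2.27% to 43.2% when the array is left out.

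In either direction 26 members were called in HGC-27 cells (39.6% of all genes were), 21 in HCT-8 cells (31.6%), 29 in Huh-7 cells (51.2%) and 2 in HepG2 cells (7.55%), or 24 without HepG2 melatonin replicate 1 (31.4%). The shares of all genes count genes of any level. Above the median of all genes lay 36 of the 44 members in HGC-27, HCT-8 and HepG2 controls and 34 in Huh-7 controls. With genes below the 25th percentile of level in a line left out, 7276, 6044, 9022 and 1459 genes were called. As fewer genes were then tested, the share of genes called was larger than the one given above. The members called were then 25, 22, 28 and 2. Beyond this, the part that level had in these shares was not tested. The melatonin arrays lay wholly above the controls for 21 members in HGC-27 cells, 20 in HCT-8 cells, 24 in Huh-7 cells and 9 in HepG2 cells, as they did for 24.9%, 21.5%, 26.3% and 20.4% of all genes. They lay wholly below for 10, 8, 8 and 7 members, and for 24.2%, 24.2%, 33.2% and 15.1% of all genes. Without HepG2 melatonin replicate 1 these HepG2 counts were 25 and 10, against 27.9% and 25.5%.

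Of the members called, 7 of 26 in HGC-27 and 3 of 21 in HCT-8 cells changed at least 1.5-fold. In Huh-7 cells 16 of 29 did, and in HepG2 cells 2 of 2 with all arrays. The median given next is signed, so rises and falls offset each other in it. The median difference of the members, melatonin minus control on the log2 scale, was 0.08 in HGC-27 cells, 0.09 in HCT-8 cells, 0.23 in Huh-7 cells and -0.02 in HepG2 cells, against -0.01, -0.03, -0.06 and 0.04 over all genes. Without HepG2 melatonin replicate 1 it was 0.17, against 0.01. At least 1.5-fold higher and called were 5 members in HGC-27 cells, 3 in HCT-8 cells, 13 in Huh-7 cells and 1 in HepG2 cells, against 4.3%, 2.78%, 9.08% and 2.67% of all genes. At least 1.5-fold lower and called were 2, 0, 3 and 1 members, against 2.89%, 1.77%, 7.07% and 2.7%. Without HepG2 melatonin replicate 1 there were 6 higher and 1 lower in HepG2 cells, against 3.94% and 4.34%. The split into higher and lower depended on the scaling of the arrays. With arrays centred on the median it was 18 against 11 in HGC-27 cells, and with arrays centred on the spike-in probe set, the only one of 100 ERCC (external RNA control) probe sets that lay above the median, it was 20 against 2 in HGC-27 and 18 against 0 in HCT-8 cells.

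The same 12 members were higher in each of the 3 lines other than HepG2, namely CTSL, LGMN, NEU1, FUCA1, MANBA, MAN2B1, GUSB, IDS, ARSA, ACP2, LIPA and SCARB2. Over all genes, 9.32% were higher in at least 3 lines and 8.39% in these 3. All 36 calls of these 12 members in the 3 lines were kept with any array of the line left out and under each other scaling. CTSL was also higher in HepG2 cells and thus in all 4 lines, as were 2.26% of all genes. Without HepG2 melatonin replicate 1, 11 of the 12 were higher in HepG2 cells, all but LIPA. Lower in at least 3 lines were CTSC, in all 4, and PPT1, against 6.97% of all genes, or 6.17% in the lines other than HepG2. CTSK, GLA and IDUA were called in opposite directions in 2 lines, against 5.08% of all genes. A further 6 members, CTSF, GALNS, ARSB, CD63, CLN3 and TFEB, were called in no line.

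**Figure D2:**
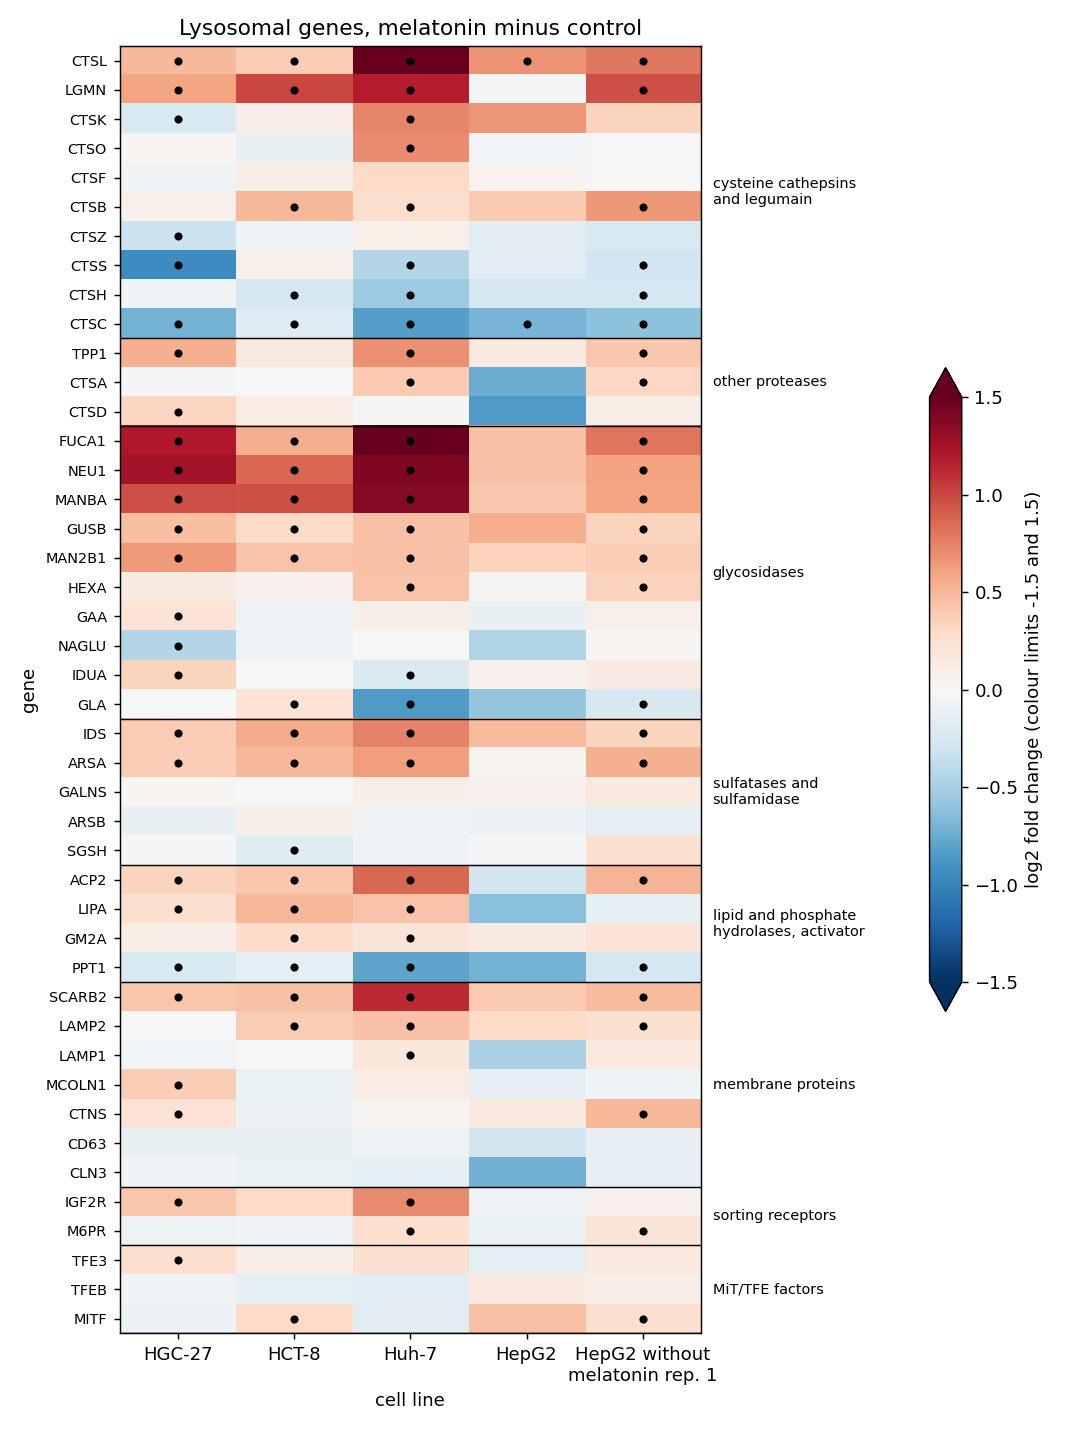
Difference between melatonin and control in log2 units for each of the 44 measured genes (rows, ordered by role) in each line and in HepG2 cells without melatonin replicate 1 (columns), with colour limits of -1.5 and 1.5. Black points mark genes called at an adjusted p of 0.05 in limma. CTSL, LGMN, NEU1, FUCA1 and MANBA are red in the lines other than HepG2, CTSC is blue in each column, and the HepG2 columns hold 2 points with all arrays and 24 without melatonin replicate 1.

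The size of the melatonin effect differed between the lines for 17 members (38.6%) in a joint fit of all 24 arrays, close to the 34.3% of all genes. That fit takes 1 spread per gene over all lines, so the wide HepG2 melatonin group enters each of its tests. Over the lines other than HepG2 alone 30 members differed (68.2%), against 46.2% of all genes, and without HepG2 melatonin replicate 1 there were 31 (70.5%), against 53.7%. The adjusted p given below for a difference between the lines is from the fit of all 24 arrays unless another is named.

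The upstream sequence of the members was searched for the palindromic E-box CACGTG and for 2 longer forms that contain it, TCACGTGA and the same with a G before and a C after it, here called the 10-base form, which is the core of the element that MiT/TFE factors bind. Each reads the same on both strands. The 250 bases before the start site in the RefSeq promoter table (GRCh38.p14) were used, for 27305 genes and for 33 of the 44 members. CACGTG occurred upstream of 13 of the 33 members (39.4%), against 7.73% of all genes. TCACGTGA occurred upstream of 6 (18.2%), against 1.04%, and the 10-base form upstream of 4 (12.1%), against 0.374%. Of the 12 members higher in at least 3 lines, LGMN, MANBA and ARSA had no upstream sequence here. CACGTG occurred upstream of 1 of the 9 with sequence, NEU1 (11.1%, near the 7.73% of all genes), against 12 of the other 24 (50%). TCACGTGA occurred upstream of 0 of these 9 and of 6 of the other 24, and the 10-base form upstream of 0 and 4. For the 2 members lower in at least 3 lines, CTSC and PPT1, there was no match. A match is a description of these letters and not a measured binding site, and the difference between the groups of members was not tested.

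The sequences of 8 members are shown to set those with the largest changes beside those with most matches, 5′ to 3′ on the strand of the gene, ending at the base before the start site, with the longest form of the E-box in capitals. The first 4 are members that changed in at least 3 lines: cathepsin L, fucosidase, sialidase and cathepsin C. The last 4 hold several matches and were higher in 1 or 2 lines: acid alpha-glucosidase, the channel TRPML1, the structural membrane protein LAMP1 and the large mannose 6-phosphate receptor.
CTSL (chr9:87725869-87726118, + strand): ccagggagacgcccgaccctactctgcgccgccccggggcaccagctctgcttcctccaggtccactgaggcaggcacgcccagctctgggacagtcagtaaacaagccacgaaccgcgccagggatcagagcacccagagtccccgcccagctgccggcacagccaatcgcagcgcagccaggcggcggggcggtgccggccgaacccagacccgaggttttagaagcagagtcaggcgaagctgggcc
FUCA1 (chr1:23868291-23868540, - strand): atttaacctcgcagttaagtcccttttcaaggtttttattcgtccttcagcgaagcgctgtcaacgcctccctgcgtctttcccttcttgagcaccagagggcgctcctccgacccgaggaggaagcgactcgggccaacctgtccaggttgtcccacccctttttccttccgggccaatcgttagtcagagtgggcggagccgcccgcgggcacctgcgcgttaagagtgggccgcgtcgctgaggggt
NEU1 (chr6:31862822-31863071, - strand): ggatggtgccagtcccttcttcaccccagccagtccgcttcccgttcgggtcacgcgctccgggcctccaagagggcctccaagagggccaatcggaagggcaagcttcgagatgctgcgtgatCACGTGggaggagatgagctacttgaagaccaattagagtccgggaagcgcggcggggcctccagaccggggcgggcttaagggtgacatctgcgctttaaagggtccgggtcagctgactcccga
CTSC (chr11:88337737-88337986, - strand): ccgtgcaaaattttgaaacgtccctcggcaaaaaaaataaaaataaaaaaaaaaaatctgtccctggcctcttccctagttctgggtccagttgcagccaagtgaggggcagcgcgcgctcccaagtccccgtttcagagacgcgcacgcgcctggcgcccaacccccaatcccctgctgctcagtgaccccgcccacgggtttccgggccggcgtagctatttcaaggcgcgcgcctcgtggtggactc
GAA (chr17:80101331-80101580, + strand): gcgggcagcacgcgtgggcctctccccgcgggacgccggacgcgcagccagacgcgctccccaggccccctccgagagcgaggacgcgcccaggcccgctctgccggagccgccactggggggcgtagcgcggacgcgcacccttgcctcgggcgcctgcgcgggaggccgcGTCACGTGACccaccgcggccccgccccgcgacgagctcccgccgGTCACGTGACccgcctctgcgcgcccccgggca
MCOLN1 (chr19:7522374-7522623, + strand): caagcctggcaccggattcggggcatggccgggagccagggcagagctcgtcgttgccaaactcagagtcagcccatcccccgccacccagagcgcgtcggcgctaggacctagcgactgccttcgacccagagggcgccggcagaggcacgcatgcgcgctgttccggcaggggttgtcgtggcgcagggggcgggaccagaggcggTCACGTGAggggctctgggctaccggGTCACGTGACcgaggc
LAMP1 (chr13:113296989-113297238, + strand): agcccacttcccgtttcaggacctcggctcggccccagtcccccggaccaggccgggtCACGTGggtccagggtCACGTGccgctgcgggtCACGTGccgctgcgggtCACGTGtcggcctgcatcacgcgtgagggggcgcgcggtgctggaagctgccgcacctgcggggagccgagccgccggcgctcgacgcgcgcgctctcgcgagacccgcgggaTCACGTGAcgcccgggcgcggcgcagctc
IGF2R (chr6:159968832-159969081, + strand): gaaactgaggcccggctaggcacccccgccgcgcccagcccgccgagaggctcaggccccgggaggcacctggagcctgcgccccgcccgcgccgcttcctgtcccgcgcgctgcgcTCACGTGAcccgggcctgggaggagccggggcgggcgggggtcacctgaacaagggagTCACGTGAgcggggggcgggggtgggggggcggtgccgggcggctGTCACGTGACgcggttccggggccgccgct
In these windows CTSL, FUCA1 and CTSC hold no capitals, NEU1 holds 1 short match, and GAA holds the 10-base form at 2 positions. The first base of its inner CACGTG lies at -76 and -31 relative to the start site. LAMP1 holds CACGTG at 5 positions. MCOLN1 holds TCACGTGA at 2 positions and IGF2R at 3. GAA, MCOLN1 and LAMP1 were higher in 1 line each and IGF2R in 2, by 0.20 (GAA in HGC-27), 0.37 (MCOLN1 in HGC-27), 0.17 (LAMP1 in Huh-7) and 0.71 (IGF2R in Huh-7 cells). These are means over the probe sets of a gene, and in Huh-7 cells 1 of the 2 GAA probe sets was higher and 1 lower.

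**Figure D3:**
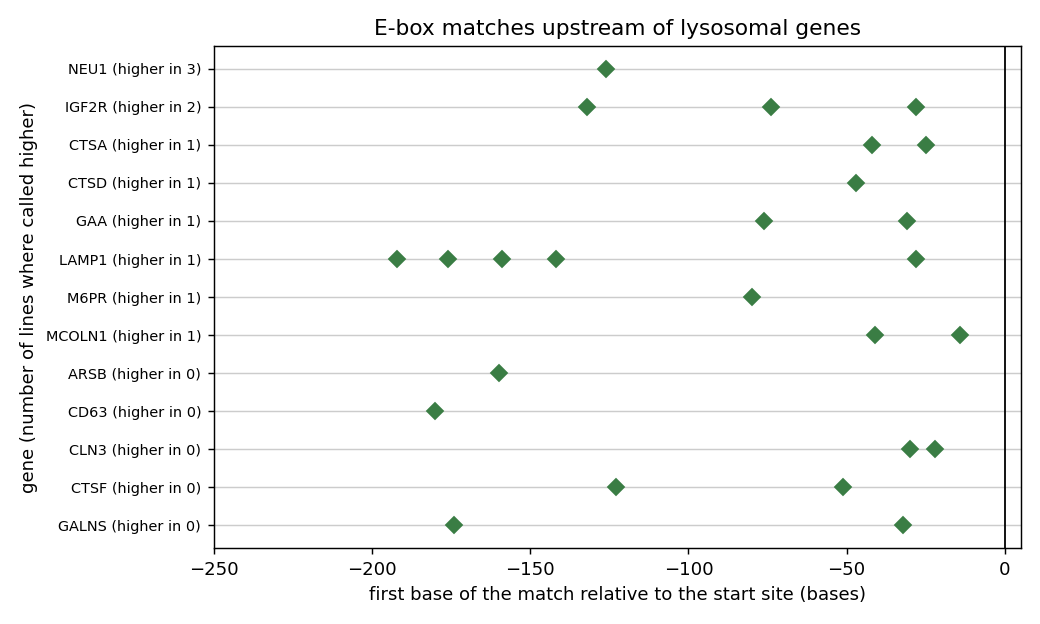
First base of each CACGTG match in the 250 bases upstream of the start site, in bases relative to it, for the 13 members with a match, ordered by the number of lines in which the gene was called higher. NEU1 is the only gene among them that was higher in 3 lines, and 5 genes with matches, ARSB, CD63, CLN3, CTSF and GALNS, were higher in 0 lines.

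Cysteine cathepsins are papain-like proteases of the lysosome, and legumain is grouped with them here, and the group held both rises and falls. Of the 10 genes, 2 were higher and 4 lower in HGC-27, 3 higher and 2 lower in HCT-8, 5 higher and 3 lower in Huh-7, and 1 higher and 1 lower in HepG2 cells, or 3 and 3 without HepG2 melatonin replicate 1. In HGC-27 cells 20% higher stood beside 20.9% of all genes and 40% lower beside 18.6%, and in Huh-7 cells 50% higher stood beside 23.8% and 30% lower beside 27.4%. In HCT-8 cells 30% higher stood beside 16.6% and 20% lower beside 15%. The HepG2 shares were 10% each beside 3.87% and 3.68%, or 30% each beside 16.5% and 14.9% without melatonin replicate 1. CTSL, the endopeptidase cathepsin L, gave the largest difference of any member in Huh-7 cells. There its log2 intensity was 6.52, 6.53 and 6.46 on the control arrays and 8.64, 8.83 and 8.83 on the melatonin arrays. This is a 4.8-fold rise, 2.26 log2 units (SE 0.06, adjusted p = 1.44e-07, limma), far beyond the spread within either group. CTSL in HGC-27 cells read 7.61, 7.62 and 7.66 on the control arrays and 8.13, 8.06 and 8.17 on the melatonin arrays, a rise of 0.49 (SE 0.05, adjusted p = 6.51e-05). CTSL in HCT-8 cells read 6.75, 6.75 and 6.83 on the control arrays and 7.07, 7.19 and 7.20 on the melatonin arrays, a rise of 0.38 (SE 0.06, adjusted p = 0.00163). Groups did not overlap in these lines, and the arrays of a group lay within 0.191 log2 units of each other. CTSL in HepG2 cells read 7.05, 7.06 and 7.18 on the control arrays and 7.54, 7.99 and 7.78 on the melatonin arrays, a rise of 0.68 (SE 0.13, adjusted p = 0.0349) that became 0.79 (adjusted p = 0.000337) without melatonin replicate 1. The HepG2 call was lost in 5 of 6 fits that each left out 1 array, with adjusted p from 0.000337 to 0.164, and with arrays centred on the median (adjusted p = 0.0513). CTSL thus rose most in Huh-7 cells, and its effects differed between the lines with adjusted p = 5.69e-10.

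LGMN encodes legumain, which cuts after asparagine and takes part in the maturation of cathepsins. LGMN in HGC-27 cells read 7.51, 7.55 and 7.56 on the control arrays and 8.12, 8.16 and 8.10 on the melatonin arrays. LGMN in HCT-8 cells read 6.05, 6.06 and 6.01 on the control arrays and 7.01, 7.04 and 7.06 on the melatonin arrays. LGMN in Huh-7 cells read 6.14, 6.11 and 6.02 on the control arrays and 7.29, 7.28 and 7.23 on the melatonin arrays. Every melatonin array lay above every control array, by 0.549 log2 units or more, in each of these lines. The rises were 0.59 (SE 0.04, adjusted p = 1.73e-05) in HGC-27, 1.0 (SE 0.05, adjusted p = 1.31e-05) in HCT-8 and 1.18 (SE 0.05, adjusted p = 7.76e-07) in Huh-7 cells, or 1.51-fold, 2-fold and 2.26-fold. LGMN in HepG2 cells read 6.52, 6.57 and 6.59 on the control arrays and 4.59, 7.59 and 7.45 on the melatonin arrays. Replicate 1 was the lowest array of the line and replicates 2 and 3 the highest, so the difference of -0.02 (adjusted p = 0.994) became 0.96 (SE 0.07, adjusted p = 8.7e-05) without replicate 1. LGMN effects did not pass the test of a difference between the lines with all arrays (adjusted p = 0.388), and they did over the other lines (adjusted p = 1.09e-06).

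CTSC encodes cathepsin C, a dipeptidyl peptidase that activates granule serine proteases in leukocytes, and it was lower in all 4 lines. CTSC in HGC-27 cells read 6.10, 5.91 and 6.06 on the control arrays and 5.34, 5.32 and 5.30 on the melatonin arrays, and it fell by 0.71 on the log2 scale (SE 0.06, adjusted p = 3.11e-05). CTSC in Huh-7 cells read 7.33, 7.28 and 7.24 on the control arrays and 6.53, 6.51 and 6.34 on the melatonin arrays, and it fell by 0.83 (SE 0.06, adjusted p = 1.24e-05). CTSC in HepG2 cells read 6.11, 6.04 and 6.12 on the control arrays and 5.24, 5.41 and 5.54 on the melatonin arrays, and it fell by 0.69 (SE 0.10, adjusted p = 0.016). Groups did not overlap in these 3 lines, and HepG2 melatonin replicate 1 was only a little below replicates 2 and 3, with a difference of -0.61 without it. The HepG2 call was lost in 4 of 6 fits that each left out 1 array, with adjusted p from 0.000426 to 0.103. CTSC in HCT-8 cells read 4.36, 4.22 and 4.32 on the control arrays and 4.15, 4.08 and 4.10 on the melatonin arrays, a smaller difference of -0.19 (SE 0.06, adjusted p = 0.0358). The HCT-8 call was lost in 5 of 6 fits that left out 1 array, with adjusted p from 0.0209 to 0.124, and with arrays centred on the spike-in probe set the value was 0.05. CTSC effects differed between the lines with adjusted p = 0.000236.

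CTSS, the cathepsin S gene known for its part in antigen presentation, and CTSH, an aminopeptidase gene, were lower in 2 lines each. CTSS in HGC-27 cells read 2.93, 3.11 and 3.14 on the control arrays and 2.20, 2.07 and 2.06 on the melatonin arrays, and it fell by 0.95 on the log2 scale (SE 0.07, adjusted p = 1.66e-05), the largest fall of a member there. CTSS in Huh-7 cells read 2.94, 3.17 and 3.06 on the control arrays and 2.54, 2.56 and 2.75 on the melatonin arrays, a difference of -0.44 (SE 0.08, adjusted p = 0.00212). CTSS in HepG2 cells read 1.79, 1.78 and 1.79 on the control arrays and 1.89, 1.54 and 1.47 on the melatonin arrays, a difference of -0.15 (adjusted p = 0.537) with all arrays and -0.28 (adjusted p = 0.0078) without replicate 1. In HCT-8 cells the control mean of CTSS lay below the median of all genes, and the groups overlapped at 0.89, 0.95 and 1.07 on the control arrays and 1.07, 1.04 and 1.01 on the melatonin arrays. CTSS effects differed between the lines with adjusted p = 2.92e-05. CTSH in Huh-7 cells read 4.62, 4.57 and 4.90 on the control arrays and 4.13, 4.23 and 4.09 on the melatonin arrays, a difference of -0.55 (SE 0.09, adjusted p = 0.00114). CTSH in HCT-8 cells read 4.18, 4.35 and 4.19 on the control arrays and 3.97, 3.91 and 4.10 on the melatonin arrays, a difference of -0.25 (SE 0.07, adjusted p = 0.0299) whose call was lost in 3 of 6 fits that left out 1 array and with arrays centred on the spike-in probe set (-0.011). CTSH in HepG2 cells read 5.09, 5.20 and 5.01 on the control arrays and 4.85, 4.77 and 4.91 on the melatonin arrays, a difference of -0.25 (adjusted p = 0.156) with no overlap between groups, and of -0.26 (adjusted p = 0.0393) without replicate 1. CTSH in HGC-27 cells overlapped between groups, at 1.44, 1.39 and 1.41 on the control arrays and 1.39, 1.46 and 1.24 on the melatonin arrays. CTSH effects differed between the lines with adjusted p = 0.0191.

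CTSK, the gene of the collagen-cutting protease of osteoclasts, was called in opposite directions. CTSK in HGC-27 cells read 3.21, 3.24 and 3.21 on the control arrays and 2.89, 3.06 and 3.03 on the melatonin arrays, a difference of -0.23 (SE 0.05, adjusted p = 0.0104) that was -0.08 (adjusted p = 0.723) with arrays centred on the spike-in probe set. CTSK in Huh-7 cells read 1.95, 1.96 and 2.32 on the control arrays and 2.79, 2.86 and 2.79 on the melatonin arrays, a rise of 0.73 (SE 0.10, adjusted p = 0.000322). CTSK in HepG2 cells read 1.55, 1.67 and 1.31 on the control arrays and 2.84, 1.94 and 1.74 on the melatonin arrays, where replicate 1 was the highest array. The HepG2 difference was 0.67 (adjusted p = 0.253) with it and 0.34 (adjusted p = 0.0583) without it, and the HCT-8 groups overlapped at 1.88, 1.68 and 1.81 on the control arrays and 1.84, 1.90 and 1.93 on the melatonin arrays. CTSK effects differed between the lines with adjusted p = 0.0117. Of the other cathepsin genes, CTSB, the cathepsin B gene, was higher in HCT-8 (0.50) and Huh-7 cells (0.26), with 0.08 in HGC-27 cells, where 3 of its 4 probe sets were higher and 1 lower. The Huh-7 call of CTSB was lost with arrays centred on the spike-in probe set (0.17, adjusted p = 0.261), and in HepG2 cells CTSB differed by 0.40 (adjusted p = 0.35) with all arrays and was higher by 0.65 (adjusted p = 0.000421) without replicate 1. CTSO was higher in Huh-7 cells only (0.71, adjusted p = 8.1e-05), and its effects differed between the lines with adjusted p = 1.87e-06. CTSZ, a carboxypeptidase gene, was lower in HGC-27 cells only (-0.32, adjusted p = 0.00521), where its control mean lay at percentile 16.4 of all genes, and the call was lost with arrays centred on the spike-in probe set (-0.17, adjusted p = 0.402). CTSF lay between -0.06 in HGC-27 and 0.30 in Huh-7 cells and was not called.

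**Figure D4:**
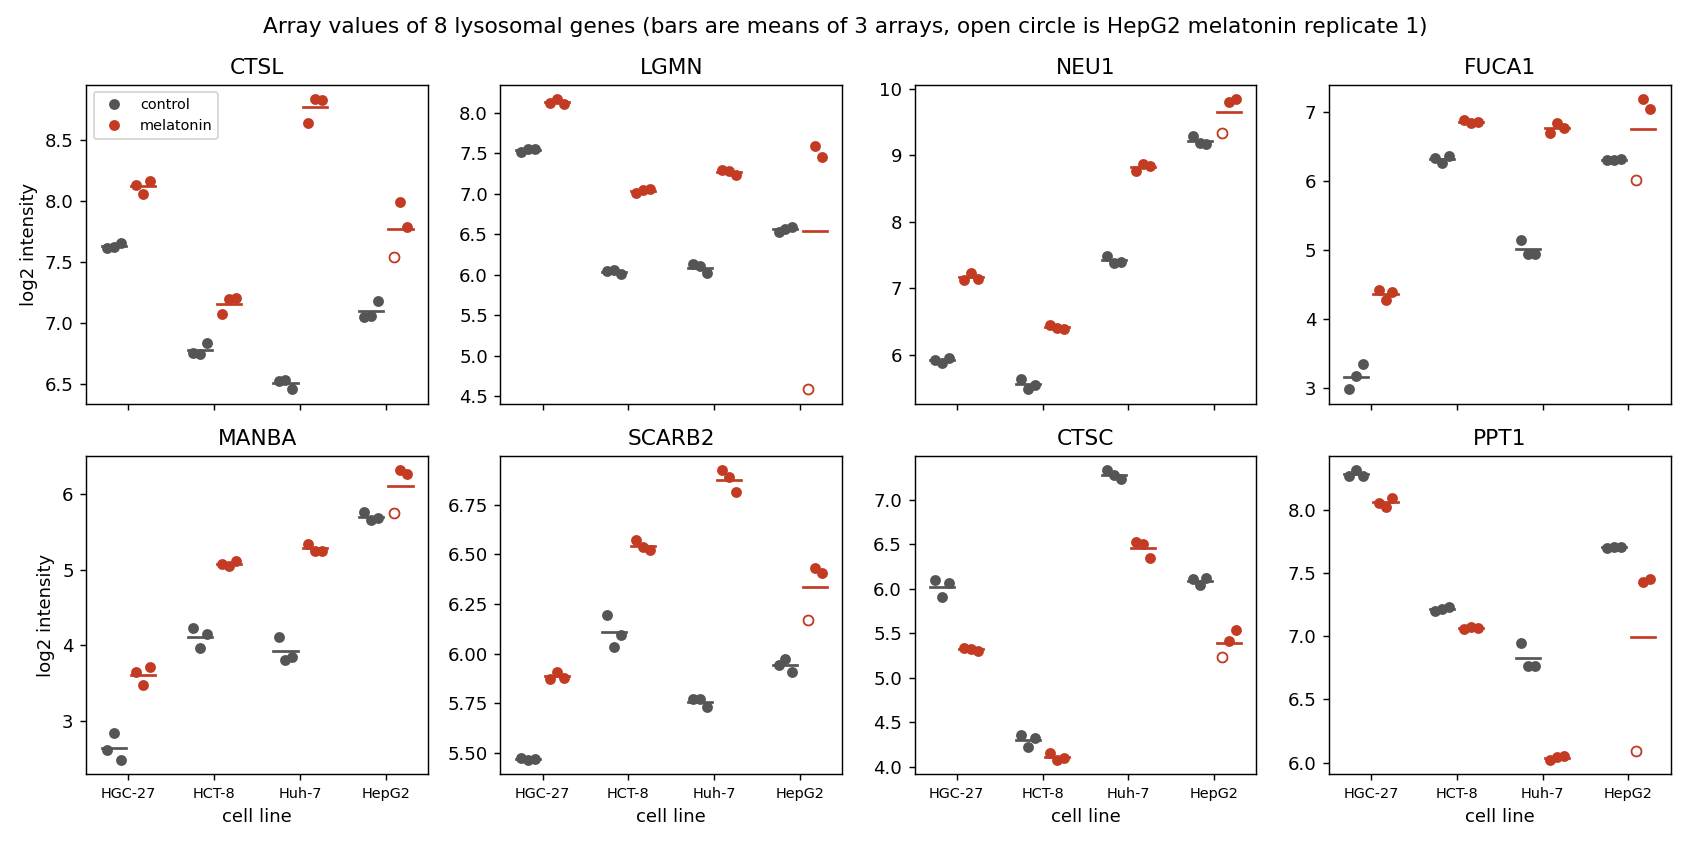
Log2 intensity of 8 lysosomal genes on each array, with control arrays in grey, melatonin arrays in red, bars at the mean of 3 arrays and an open circle for HepG2 melatonin replicate 1. In the lines other than HepG2 the melatonin arrays of CTSL, LGMN, NEU1, FUCA1, MANBA and SCARB2 all lie above the controls and those of CTSC and PPT1 all below. The open circle lies far below the other HepG2 melatonin arrays for LGMN (4.59 against 7.59 and 7.45) and PPT1 (6.09 against 7.43 and 7.45).

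The other proteases gave smaller differences. TPP1, the gene of a tripeptidyl peptidase, was higher in HGC-27 (0.53, adjusted p = 0.000327) and Huh-7 cells (0.69, adjusted p = 6.5e-05), with 0.14 in HCT-8 cells (adjusted p = 0.0849). TPP1 differed by 0.15 in HepG2 cells with all arrays and was higher by 0.40 (adjusted p = 0.00757) without replicate 1. CTSA, the gene of the protective protein that forms a complex with sialidase, was higher in Huh-7 cells only, by 0.39. CTSA in HepG2 cells read 9.14, 9.23 and 9.20 on the control arrays and 6.32, 9.54 and 9.47 on the melatonin arrays. Melatonin replicates 2 and 3 lay above all controls and replicate 1 almost 3 log2 units below them, so the difference of -0.75 (adjusted p = 0.664) turned to 0.31 (adjusted p = 0.00651) without replicate 1. CTSD, the gene of the aspartic protease cathepsin D, was higher in HGC-27 cells (0.32, adjusted p = 0.00366), with 0.12 in HCT-8 and 0.02 in Huh-7 cells. In HepG2 cells CTSD differed by -0.84 (adjusted p = 0.578), or 0.09 without replicate 1.

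More than 5 of the glycosidase genes, whose enzymes cut sugars from glycoproteins, glycolipids and glycosaminoglycans, rose in each line other than HepG2. Of the 10 genes, 7 were higher in HGC-27 cells, 6 in HCT-8 cells and 6 in Huh-7 cells, and 1, 0 and 2 were lower. Over all genes, 20.9%, 16.6% and 23.8% were higher in these lines and 18.6%, 15% and 27.4% lower. In HepG2 cells limma called 0, with 4 at an unadjusted p under 0.05, or 6 higher and 1 lower without melatonin replicate 1. The HepG2 shares of all genes were 3.87% higher and 3.68% lower, or 16.5% and 14.9% without that array. NEU1 encodes the lysosomal sialidase, which removes sialic acid from the ends of sugar chains. NEU1 in HGC-27 cells read 5.91, 5.87 and 5.95 on the control arrays and 7.13, 7.22 and 7.13 on the melatonin arrays. NEU1 in HCT-8 cells read 5.63, 5.48 and 5.54 on the control arrays and 6.45, 6.40 and 6.39 on the melatonin arrays. NEU1 in Huh-7 cells read 7.48, 7.38 and 7.39 on the control arrays and 8.76, 8.86 and 8.84 on the melatonin arrays. The groups were at least 0.761 log2 units apart in each of these lines. NEU1 rose by 1.25 (SE 0.05, adjusted p = 1.46e-06) in HGC-27, 0.86 (SE 0.06, adjusted p = 3.42e-05) in HCT-8 and 1.40 (SE 0.05, adjusted p = 4.16e-07) in Huh-7 cells, or 2.38-fold, 1.82-fold and 2.65-fold. NEU1 in HepG2 cells read 9.29, 9.19 and 9.17 on the control arrays and 9.33, 9.80 and 9.84 on the melatonin arrays, with replicate 1 barely above the controls, and the difference was 0.44 (adjusted p = 0.159) or 0.60 (adjusted p = 0.000404) without it. NEU1 effects differed between the lines with adjusted p = 2.63e-05.

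FUCA1 encodes alpha-L-fucosidase, which removes fucose. FUCA1 in HGC-27 cells read 2.98, 3.16 and 3.34 on the control arrays and 4.42, 4.28 and 4.39 on the melatonin arrays. FUCA1 in HCT-8 cells read 6.33, 6.25 and 6.36 on the control arrays and 6.88, 6.83 and 6.85 on the melatonin arrays. FUCA1 in Huh-7 cells read 5.14, 4.94 and 4.94 on the control arrays and 6.68, 6.84 and 6.77 on the melatonin arrays. Again no control array reached a melatonin array, and the gap was widest in Huh-7 cells. The rises were 1.20 (SE 0.09, adjusted p = 1.84e-05), 0.54 (SE 0.05, adjusted p = 0.000168) and 1.76 (SE 0.07, adjusted p = 5.02e-07), or 2.3-fold, 1.46-fold and 3.38-fold. FUCA1 in HepG2 cells read 6.30, 6.31 and 6.31 on the control arrays and 6.01, 7.18 and 7.04 on the melatonin arrays, where replicate 1 was below the controls and the others above, so that the difference was 0.44 (adjusted p = 0.471) and 0.80 (adjusted p = 0.000129) without replicate 1. FUCA1 effects differed between the lines with adjusted p = 0.00124.

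MANBA encodes beta-mannosidase, an enzyme of the last steps of glycoprotein sugar breakdown. MANBA in HGC-27 cells read 2.62, 2.84 and 2.49 on the control arrays and 3.65, 3.48 and 3.71 on the melatonin arrays. MANBA in HCT-8 cells read 4.23, 3.96 and 4.15 on the control arrays and 5.07, 5.04 and 5.11 on the melatonin arrays. MANBA in Huh-7 cells read 4.11, 3.80 and 3.85 on the control arrays and 5.34, 5.25 and 5.25 on the melatonin arrays. The melatonin arrays were above the controls by more than the range of the controls in each of these lines. The rises were 0.96 (SE 0.10, adjusted p = 8.18e-05), 0.96 (SE 0.07, adjusted p = 5.16e-05) and 1.36 (SE 0.08, adjusted p = 3.4e-06), or 1.95-fold, 1.94-fold and 2.57-fold. MANBA in HepG2 cells read 5.76, 5.65 and 5.69 on the control arrays and 5.75, 6.31 and 6.26 on the melatonin arrays, a difference of 0.41 (adjusted p = 0.213) with overlap, and of 0.59 (adjusted p = 0.000409) without replicate 1. MANBA effects differed between the lines with adjusted p = 0.00183.

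MAN2B1 encodes the lysosomal alpha-mannosidase. MAN2B1 in HGC-27 cells read 5.65, 5.63 and 5.68 on the control arrays and 6.31, 6.45 and 6.11 on the melatonin arrays. MAN2B1 in HCT-8 cells read 4.16, 3.90 and 3.98 on the control arrays and 4.34, 4.46 and 4.51 on the melatonin arrays. MAN2B1 in Huh-7 cells read 5.05, 4.95 and 5.10 on the control arrays and 5.58, 5.29 and 5.53 on the melatonin arrays. The groups did not overlap, though the arrays of a group were up to 0.339 log2 units apart. The rises were 0.64 (SE 0.08, adjusted p = 0.000308), 0.43 (SE 0.08, adjusted p = 0.00362) and 0.44 (SE 0.08, adjusted p = 0.0024). MAN2B1 in HepG2 cells read 4.48, 4.15 and 4.20 on the control arrays and 4.53, 4.68 and 4.63 on the melatonin arrays, a difference of 0.33 (adjusted p = 0.152) or 0.37 (adjusted p = 0.025) without replicate 1. MAN2B1 did not pass the test of a difference between the lines (adjusted p = 0.316). GUSB, the beta-glucuronidase gene, was higher in the same 3 lines, by 0.46, 0.29 and 0.45, and by 0.33 in HepG2 cells without replicate 1.

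GLA, the gene of alpha-galactosidase A, which removes galactose from glycolipids, fell in Huh-7 cells while most glycosidases rose. GLA in Huh-7 cells read 7.45, 7.40 and 7.56 on the control arrays and 6.67, 6.60 and 6.59 on the melatonin arrays, and it fell by 0.85 on the log2 scale (SE 0.06, adjusted p = 6.51e-06), a 1.81-fold decrease and the largest of a member in this line. The differences of its 3 probe sets there were -0.37, -0.24 and -1.95, so the size of the mean rested mostly on 1 of them. GLA in HCT-8 cells read 4.59, 4.63 and 4.65 on the control arrays and 4.88, 4.84 and 4.77 on the melatonin arrays, a rise of 0.21 (SE 0.05, adjusted p = 0.0181) whose call was lost in 3 of 6 fits that left out 1 array. GLA in HepG2 cells read 6.0, 5.83 and 5.93 on the control arrays and 4.66, 5.66 and 5.69 on the melatonin arrays, all melatonin arrays below the controls. The HepG2 difference was -0.58 (adjusted p = 0.299), and -0.25 (adjusted p = 0.0291) without replicate 1. GLA in HGC-27 cells overlapped between groups, at 6.0, 5.97 and 6.09 on the control arrays and 5.98, 6.0 and 6.08 on the melatonin arrays, and of its 3 probe sets there 1 was higher and 1 lower. GLA effects differed between the lines with adjusted p = 0.00339. IDUA, the gene of alpha-L-iduronidase, an enzyme of heparan and dermatan sulfate breakdown, was the other glycosidase gene called in both directions. IDUA in HGC-27 cells read 1.78, 1.94 and 1.78 on the control arrays and 2.29, 2.05 and 2.15 on the melatonin arrays, a rise of 0.33 (SE 0.07, adjusted p = 0.00656). IDUA in Huh-7 cells read 1.51, 1.65 and 1.66 on the control arrays and 1.45, 1.39 and 1.33 on the melatonin arrays, a difference of -0.21 (SE 0.06, adjusted p = 0.0176) whose call was lost in 3 of 6 fits that left out 1 array. IDUA in HCT-8 and HepG2 cells was not called, at 1.47, 1.06 and 1.23 on the control arrays and 1.24, 1.27 and 1.23 on the melatonin arrays in HCT-8 cells. IDUA in HepG2 cells read 1.18, 1.23 and 1.01 on the control arrays and 1.09, 1.23 and 1.28 on the melatonin arrays, a difference of 0.06, or 0.12 (adjusted p = 0.323) without replicate 1. IDUA control means lay below the median of all genes in each line, and its effects differed between the lines with adjusted p = 0.0156.

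Among the remaining glycosidase genes, HEXA, the alpha subunit gene of hexosaminidase A, was higher in Huh-7 cells (0.42) and, without replicate 1, in HepG2 cells (0.34). GAA, the gene of the glycogen-degrading acid alpha-glucosidase, was higher in HGC-27 cells only (0.20, adjusted p = 0.0271), and that call was lost in 4 of 6 fits that left out 1 array. Of the 2 GAA probe sets, the brighter one rose in HGC-27 (0.53) and Huh-7 cells (0.58). The dimmer one fell in Huh-7 cells (-0.40), so that the mean was not called there. NAGLU, a gene of heparan sulfate breakdown, was lower in HGC-27 cells only, with -0.44 (adjusted p = 0.000427) and -0.29 (adjusted p = 0.113) with arrays centred on the spike-in probe set.

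The sulfatases remove sulfate groups before the sugars of glycosaminoglycans and sulfolipids can be cut, and 2 of the 5 genes rose in each of the lines other than HepG2, the same 2 each time. This is 40% in each line, against 20.9%, 16.6% and 23.8% of all genes. IDS, the iduronate sulfatase gene, rose by 0.39 (SE 0.06) in HGC-27, 0.56 (SE 0.10) in HCT-8 and 0.75 (SE 0.07) in Huh-7 cells, where 4 of its 6 probe sets were higher and 1 lower. ARSA, the gene of the sulfatide-cutting arylsulfatase A, rose by 0.37 (SE 0.07), 0.50 (SE 0.05) and 0.62 (SE 0.09). Without replicate 1 both were higher in HepG2 cells too, by 0.33 and 0.53. As means over probe sets, ARSB and GALNS, which act on dermatan and keratan sulfate, were not called in any line. Their differences ran from -0.11 to 0.09 for ARSB and from 0.01 to 0.09 for GALNS. Taken singly, the brighter GALNS probe set was higher in Huh-7 cells (0.365, adjusted p = 0.00126). The brightest ARSB probe set was lower there (-0.24, adjusted p = 0.0402). SGSH, the sulfamidase gene, was lower in HCT-8 cells only (-0.18, adjusted p = 0.0421), a call that was lost in 5 of 6 fits that left out 1 array and was 0.06 with arrays centred on the spike-in probe set.

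Of the lipid and phosphate hydrolase genes, ACP2 and LIPA rose and PPT1 fell in the same 3 lines. ACP2, a lysosomal acid phosphatase gene, rose by 0.34 (SE 0.06) in HGC-27, 0.40 (SE 0.06) in HCT-8 and 0.86 (SE 0.05) in Huh-7 cells. ACP2 in HepG2 cells read 4.71, 4.74 and 4.85 on the control arrays and 2.92, 5.36 and 5.20 on the melatonin arrays, and the difference of -0.27 turned to 0.52 (adjusted p = 0.00157) without replicate 1. LIPA, the gene of the acid lipase that cuts cholesteryl esters and triglycerides, rose by 0.24, 0.49 and 0.43 (SE 0.05, 0.05 and 0.07). LIPA in HepG2 cells read 8.23, 8.10 and 8.12 on the control arrays and 6.53, 7.98 and 8.04 on the melatonin arrays, all below the controls, with -0.63 (adjusted p = 0.433) and -0.14 (adjusted p = 0.173) without replicate 1. LIPA was thus the only one of the 12 members that did not lie higher in HepG2 cells without that array, and its effects differed between the lines with adjusted p = 0.032. GM2A, the gene of the activator that presents gangliosides to hexosaminidase, was higher in HCT-8 (0.28, adjusted p = 0.00769) and Huh-7 cells (0.19, adjusted p = 0.0317), and the Huh-7 call was lost in 5 of 6 fits that left out 1 array.

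PPT1 encodes the thioesterase that removes palmitate from cysteines of proteins. PPT1 in Huh-7 cells read 6.95, 6.76 and 6.77 on the control arrays and 6.02, 6.04 and 6.05 on the melatonin arrays, and it fell by 0.79 on the log2 scale (SE 0.06, adjusted p = 1.39e-05), 1.73-fold. PPT1 in HGC-27 cells read 8.27, 8.32 and 8.27 on the control arrays and 8.06, 8.03 and 8.10 on the melatonin arrays, a difference of -0.22 (SE 0.04, adjusted p = 0.0036). PPT1 in HCT-8 cells read 7.20, 7.21 and 7.23 on the control arrays and 7.06, 7.08 and 7.06 on the melatonin arrays, a difference of -0.15 (SE 0.05, adjusted p = 0.0472). The smaller falls held less firmly: the HCT-8 call was lost in all 6 fits that left out 1 array (adjusted p from 0.073 to 0.131), and with arrays centred on the spike-in probe set the values were -0.07 (adjusted p = 0.733) in HGC-27 and 0.09 (adjusted p = 0.682) in HCT-8 cells. PPT1 in HepG2 cells read 7.70, 7.71 and 7.71 on the control arrays and 6.09, 7.43 and 7.45 on the melatonin arrays, a difference of -0.71 (adjusted p = 0.328), and of -0.26 (adjusted p = 0.00923) without replicate 1. PPT1 effects did not pass the test of a difference between the lines with all arrays (adjusted p = 0.183), and they did over the lines other than HepG2 (adjusted p = 8.23e-07).

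The membrane proteins gave rises and no falls that passed the test. Of the 7 genes, 3 were higher in HGC-27 cells, 2 in HCT-8 cells, 3 in Huh-7 cells and 0 in HepG2 cells. In HGC-27 cells 42.9% stood beside 20.9% of all genes, in HCT-8 cells 28.6% beside 16.6% and in Huh-7 cells 42.9% beside 23.8%. The share of all genes in HepG2 cells was 3.87%. In HepG2 cells 2 reached an unadjusted p under 0.05 in limma, and 3 were higher without melatonin replicate 1 (42.9%, against 16.5% of all genes). SCARB2 encodes LIMP-2, which carries glucocerebrosidase to the lysosome. SCARB2 in HGC-27 cells read 5.48, 5.46 and 5.47 on the control arrays and 5.87, 5.91 and 5.87 on the melatonin arrays. SCARB2 in HCT-8 cells read 6.19, 6.03 and 6.09 on the control arrays and 6.57, 6.54 and 6.52 on the melatonin arrays. SCARB2 in Huh-7 cells read 5.77, 5.77 and 5.73 on the control arrays and 6.92, 6.89 and 6.82 on the melatonin arrays. The melatonin arrays lay above the controls in each line, farthest in Huh-7 cells. SCARB2 rose by 0.42 (SE 0.04, adjusted p = 7.66e-05) in HGC-27, 0.44 (SE 0.06, adjusted p = 0.000742) in HCT-8 and 1.12 (SE 0.05, adjusted p = 8.06e-07) in Huh-7 cells, the last being 2.17-fold. SCARB2 in HepG2 cells read 5.94, 5.97 and 5.91 on the control arrays and 6.17, 6.43 and 6.41 on the melatonin arrays, without overlap, a difference of 0.39 (adjusted p = 0.0654) and of 0.48 (adjusted p = 0.000693) without replicate 1. SCARB2 effects differed between the lines with adjusted p = 1.92e-06.

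As means over probe sets, the structural membrane proteins gave smaller differences. LAMP1 differed by -0.04 in HGC-27 and -0.01 in HCT-8 cells, and it was higher in Huh-7 cells by 0.17 (adjusted p = 0.0192), a call that was lost in 3 of 6 fits that left out 1 array and with arrays centred on the median (adjusted p = 0.0834). LAMP1 in HepG2 cells differed by -0.49, or by 0.14 without replicate 1, and was not called. LAMP2, which also serves in chaperone-mediated autophagy, was higher in HCT-8 (0.38) and Huh-7 cells (0.44) and differed by 0.01 in HGC-27 cells, where 3 of its 9 probe sets were higher and 2 lower. The 3 higher ones rose by 0.40 to 0.42 at log2 levels of 4.84 to 7.51, and the 2 lower ones lay at 2.46 and 1.98. LAMP2 in HepG2 cells differed by 0.30 (adjusted p = 0.107) and was higher by 0.23 (adjusted p = 0.0177) without replicate 1, and its effects differed between the lines with adjusted p = 0.00182. CD63, a tetraspanin gene, lay between -0.08 in Huh-7 cells and -0.27 in HepG2 cells. CLN3, a gene mutated in a neuronal storage disease, lay between -0.05 in HGC-27 and -0.72 in HepG2 cells. Without HepG2 melatonin replicate 1 the HepG2 values were -0.13 for CD63 and -0.12 for CLN3. That array read 3.82 for CLN3 against 5.58 and 5.63 on the others. All melatonin arrays lay below all control arrays for both genes in each of the 4 lines, yet neither was called. The groups were as little as 0.0001 log2 units apart for CD63 and 0.0165 for CLN3, both in HGC-27 cells. Of all genes, 24.2%, 24.2%, 33.2% and 15.1% lay wholly below the controls in the 4 lines. MCOLN1, the gene of the calcium channel TRPML1, was higher in HGC-27 cells only (0.37, adjusted p = 0.000597), and its effects differed between the lines with adjusted p = 0.00146. CTNS, the cystine exporter gene, was higher in HGC-27 cells (0.22, adjusted p = 0.0124, or 0.0662 with arrays centred on the median) and, without replicate 1, in HepG2 cells (0.50). Of its 8 probe sets, 1 was higher in HGC-27 cells (1.0, adjusted p = 0.00165) and the others were not called there. In HCT-8 cells, where the mean was not called, 1 CTNS probe set was higher and 1 lower.

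Both sorting receptors that were measured bind the mannose 6-phosphate tag. IGF2R, the large receptor that also clears insulin-like growth factor 2, rose in HGC-27 cells from 5.0, 4.93 and 4.97 on the control arrays to 5.39, 5.45 and 5.29 on the melatonin arrays, by 0.42 (SE 0.05, adjusted p = 0.000329). IGF2R in Huh-7 cells read 5.96, 5.84 and 5.68 on the control arrays and 6.65, 6.49 and 6.49 on the melatonin arrays, a rise of 0.71 (SE 0.08, adjusted p = 0.000123). IGF2R in HCT-8 cells read 4.71, 4.85 and 4.43 on the control arrays and 5.03, 4.96 and 4.90 on the melatonin arrays, without overlap but with controls spread over 0.425 log2 units. That difference of 0.30 missed the threshold at adjusted p = 0.0549. IGF2R in HepG2 cells read 7.04, 7.09 and 7.03 on the control arrays and 6.75, 7.09 and 7.15 on the melatonin arrays with overlap, a difference of -0.06 (adjusted p = 0.831) or 0.07 (adjusted p = 0.481) without replicate 1. IGF2R effects differed between the lines with adjusted p = 0.0026. M6PR, the smaller, cation-dependent receptor, gave smaller values. M6PR in Huh-7 cells read 8.18, 8.21 and 8.14 on the control arrays and 8.42, 8.43 and 8.41 on the melatonin arrays, a rise of 0.24 (SE 0.05, adjusted p = 0.00276) that was 0.15 (adjusted p = 0.322) with arrays centred on the spike-in probe set. M6PR in HGC-27 cells read 7.41, 7.34 and 7.39 on the control arrays and 7.32, 7.31 and 7.28 on the melatonin arrays, a difference of -0.07 (adjusted p = 0.224). M6PR in HCT-8 cells read 6.86, 6.88 and 6.89 on the control arrays and 6.76, 6.84 and 6.84 on the melatonin arrays, a difference of -0.07 (adjusted p = 0.373). The melatonin arrays were below the controls in both, although neither passed the test. M6PR in HepG2 cells read 7.55, 7.63 and 7.65 on the control arrays and 6.92, 7.80 and 7.82 on the melatonin arrays, and the difference was -0.10, or 0.20 (adjusted p = 0.0456) without replicate 1.

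As means over probe sets, MiT/TFE messenger RNA passed the test in 1 line for TFE3, 1 for MITF and 0 for TFEB. These arrays do not measure the position of the proteins in the cell. Taken singly, 1 TFE3 probe set was higher in each line but HepG2, by 0.40, 0.33 and 0.55 (adjusted p = 0.0313, 0.0086 and 0.029). The other TFE3 probe set was called in no line. For TFEB, 1 probe set was lower in HCT-8 cells (-0.32, adjusted p = 0.0451). For MITF, 1 probe set was lower in HGC-27 (-0.21, adjusted p = 0.0306) and higher in HCT-8 cells (0.38, adjusted p = 0.0091). TFEB in HGC-27 cells read 3.24, 3.25 and 3.19 on the control arrays and 3.23, 3.11 and 3.19 on the melatonin arrays. TFEB in HCT-8 cells read 2.43, 2.59 and 2.45 on the control arrays and 2.42, 2.25 and 2.39 on the melatonin arrays. TFEB in Huh-7 cells read 2.48, 2.45 and 2.55 on the control arrays and 2.24, 2.29 and 2.49 on the melatonin arrays. The differences were -0.05, -0.14 and -0.15, with adjusted p of 0.473, 0.161 and 0.11. TFEB in HepG2 cells read 2.82, 2.94 and 2.95 on the control arrays and 3.16, 2.94 and 3.04 on the melatonin arrays, a difference of 0.14 (adjusted p = 0.434) or 0.09 (adjusted p = 0.421) without replicate 1. TFE3 in HGC-27 cells read 3.28, 3.19 and 3.15 on the control arrays and 3.42, 3.48 and 3.49 on the melatonin arrays, a rise of 0.26 (SE 0.05, adjusted p = 0.00357). In the other lines TFE3 overlapped between groups. TFE3 in HCT-8 cells read 1.98, 2.05 and 1.98 on the control arrays and 2.21, 2.04 and 2.03 on the melatonin arrays, a difference of 0.09. TFE3 in Huh-7 cells read 2.73, 2.80 and 2.54 on the control arrays and 2.95, 2.71 and 3.09 on the melatonin arrays, a difference of 0.23. TFE3 in HepG2 cells read 2.62, 2.79 and 2.67 on the control arrays and 2.0, 2.78 and 2.90 on the melatonin arrays, a difference of -0.14 with replicate 1 lowest and 0.14 without it.

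MITF, the factor of melanocytes and osteoclasts, was called higher in HCT-8 cells only. MITF in HCT-8 cells read 2.33, 2.23 and 2.42 on the control arrays and 2.64, 2.64 and 2.60 on the melatonin arrays, a rise of 0.30 (SE 0.06, adjusted p = 0.00578). MITF in HepG2 cells read 1.19, 1.22 and 1.36 on the control arrays and 2.07, 1.51 and 1.51 on the melatonin arrays, a difference of 0.44 (adjusted p = 0.2), or 0.26 (adjusted p = 0.0275) without replicate 1. MITF in HGC-27 cells read 4.89, 4.92 and 4.93 on the control arrays and 4.81, 4.84 and 4.83 on the melatonin arrays, a difference of -0.09 (adjusted p = 0.13). No melatonin array reached the controls in HGC-27 cells, and no control reached the melatonin arrays in HCT-8 and HepG2 cells. MITF in Huh-7 cells overlapped, at 1.20, 1.58 and 1.59 on the control arrays and 1.33, 1.32 and 1.25 on the melatonin arrays, and its effects differed between the lines with adjusted p = 0.0139.

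HepG2 melatonin replicate 1 read lower than the other HepG2 melatonin arrays for 33 of the 44 members. The gap to the mean of replicates 2 and 3 had a median of -0.46 over the members, against 0.14 over all genes, and ran from -3.19 for CTSA to 0.99 for CTSK. On that array 13 members (29.5%) were lower by over 1 log2 unit, against 6.92% of all genes, and 0 members were higher by as much. They include the genes of the soluble hydrolases CTSA, LGMN, CTSD and ACP2 and of the membrane protein LAMP1. Replicates 2 and 3 were within 0.31 log2 units of each other for each member. The median SD of the members was 0.32 in the HepG2 melatonin group and 0.0415 to 0.0766 in the other groups. The part that the state of this array's RNA had in the HepG2 results was not tested.

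**Figure D5:**
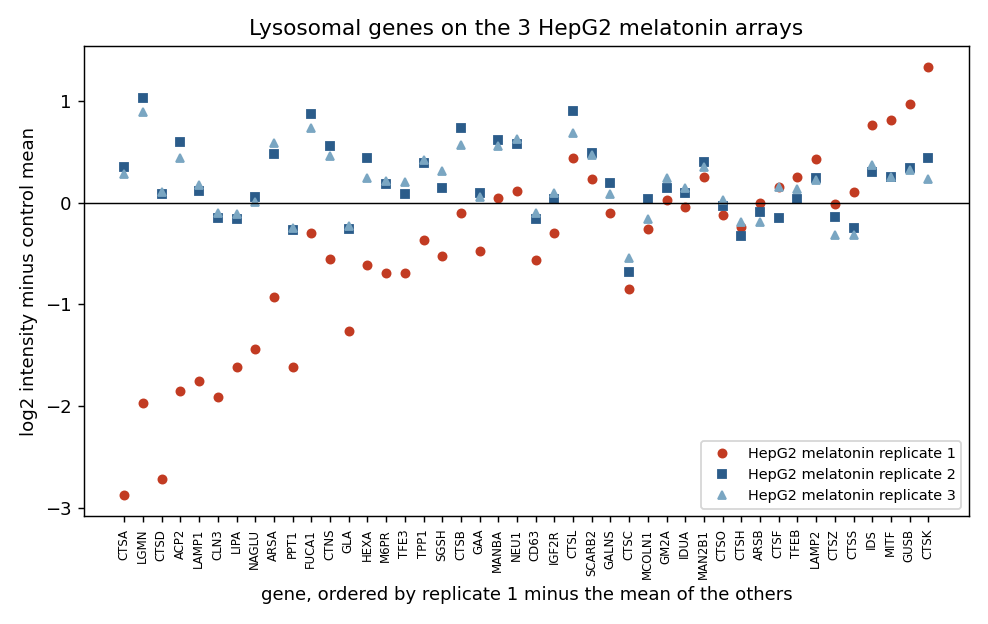
Log2 intensity minus the mean of the HepG2 controls for each lysosomal gene on the 3 HepG2 melatonin arrays, with genes ordered by the gap between replicate 1 (red circles) and the mean of replicates 2 and 3 (blue squares and triangles). Replicates 2 and 3 lie close together for each gene, at most 0.31 apart, while replicate 1 lies up to 3.19 below their mean, at CTSA, and up to 0.99 above it, at CTSK.

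Other lysosomal genes of the same pathway also gave both rises and falls. Beside the counts below stand the shares of all genes, higher and lower, of 20.9% and 18.6% in HGC-27 cells, 16.6% and 15% in HCT-8 cells, 23.8% and 27.4% in Huh-7 cells and 3.87% and 3.68% in HepG2 cells, or 16.5% and 14.9% without HepG2 melatonin replicate 1. Of 22 other enzymes and cofactors, 11 were higher and 3 lower in HGC-27, 9 and 2 in HCT-8, 13 and 5 in Huh-7, and 2 and 0 in HepG2 cells, or 11 and 0 without HepG2 melatonin replicate 1. SMPD1, the acid sphingomyelinase gene, was higher in all 4 lines, by 1.26, 0.51, 1.5 and 0.71, the last being 0.74 without that array. DNASE2, the acid nuclease gene, was higher by 0.73, 0.62 and 1.79 in the lines other than HepG2, and SIAE, a sialic acid esterase gene, by 0.87, 0.50 and 0.58. Of 20 other membrane proteins and transporters, 8 were higher and 2 lower in HGC-27, 8 and 2 in HCT-8, 12 and 3 in Huh-7, and 2 and 0 in HepG2 cells, or 5 and 2 without that array. LAMP3, a relative of LAMP1 and LAMP2, gave the largest rise among them in the lines other than HepG2, 1.17, 1.10 and 2.71, with 0.02 in HepG2 cells and 0.06 there without that array. The control mean of LAMP3 lay at percentile 17.2 of all genes in HGC-27 and 21.7 in HepG2 cells. OSTM1, the partner of a lysosomal chloride exchanger, was higher in all 4 lines, by 0.48, 0.66, 0.74 and 0.93, the last being 0.78 without that array. NPC1, a gene of cholesterol export, was higher in the lines other than HepG2 (0.76, 0.35 and 0.33) and by 0.54 in HepG2 cells without that array, while LAPTM4B was lower in the lines other than HepG2 (-0.32, -0.31 and -0.46).

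Of 16 subunit genes of the vacuolar proton ATPase, which acidifies the lysosome, 2 were higher and 3 lower in HGC-27 (12.5% and 18.8%, not above the shares of all genes), 5 and 0 in HCT-8, 10 and 1 in Huh-7, and 0 and 0 in HepG2 cells. There 2 of the 16 reached an unadjusted p under 0.05 in limma, and without melatonin replicate 1 the count was 5 and 0. Of 19 genes of mannose 6-phosphate tagging and of coat adaptors, 2 were higher and 4 lower in HGC-27, 3 and 2 in HCT-8, 8 and 6 in Huh-7, and 0 and 1 in HepG2 cells, or 2 and 4 without that array. GGA2 and AP1S1, adaptor genes of transport from the Golgi apparatus, were lower in HGC-27 (-0.37 and -0.62), HCT-8 (-0.24 and -0.30) and Huh-7 cells (-0.59 and -0.40). Of 13 genes of nutrient sensing at the lysosome, 5 were higher and 1 lower in HGC-27, 4 and 0 in HCT-8, 8 and 0 in Huh-7, and 2 and 0 in HepG2 cells, or 5 and 1 without that array. RRAGC, a Rag GTPase gene, was higher in all 4 lines (0.62, 0.54, 1.24 and 0.46, the last being 0.40 without that array). FLCN, the folliculin gene, was higher in HGC-27 (0.14), Huh-7 (0.52) and HepG2 cells (0.83, or 0.65 without that array). Of 8 cystatin genes, which encode inhibitors of cysteine cathepsins, 3 were higher in HGC-27 and 2 in HCT-8 cells, and 1 was higher and 4 lower in Huh-7 cells. In HepG2 cells 0 cystatin genes were called or reached an unadjusted p under 0.05, and 1 was higher without melatonin replicate 1. CSTA, the cystatin A gene, read 2.66, 2.96 and 2.43 on the control arrays and 5.62, 5.58 and 5.62 on the melatonin arrays in HGC-27 cells, a 7.6-fold rise (adjusted p = 1.49e-06), and rose by 0.27 in HCT-8 and 0.27 in Huh-7 cells. The control mean of CSTA in HCT-8 cells lay at percentile 4.4 of all genes.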

How the data were processed

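RNA of 24 samples of 4 human cancer cell lines, 3 melatonin and 3 control samples per line, was hybridised to customised PrimeView arrays. The authors deposited log2 intensities made by RMA (robust multi-array average) for 49495 probe sets, and the version of the software is not given in the sources used here. Array medians differed between lines, so differences were taken only within a line. Probe sets with 1 gene symbol were used (45278, after 6 controls were left out), while 1333 listed for several genes and 2878 with none listed were not. The mean over the probe sets of a gene gave 18244 genes. Melatonin was compared with control in each line with limma 3.58.1 (lmFit, eBayes, R 4.3.3), with Benjamini-Hochberg adjustment over all genes and a threshold of 0.05, and effects were compared between lines by an F test in 1 fit of all 24 arrays. The labels do not say whether replicate numbers pair the samples, and the main fits treated them as unpaired. Correlations of same-numbered deviations were -0.041 to 0.136, which cannot decide whether the samples were handled in pairs. Gene lists and members were chosen with earlier results of these data known. Members described array by array were the 6 higher in at least 3 lines with the largest smallest difference, those lower in at least 3 lines, the 2 most higher and 2 most lower in each line, those called in opposite directions, the MiT/TFE factors and the receptors. Other lysosomal genes were named where called in at least 3 lines in 1 direction, up to 3 per list and direction. The scripts were tested on simulated data. Precision is limited by the number of arrays. Python 3.11.15, pandas 2.3.3 and matplotlib 3.10.9 were used for tables and figures. Alternatives covered the choice of probe set, filters, scaling, spread, array weights, a replicate block, a joint fit, the methods' t-test, a fold threshold and each array left out.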

Additional observations from a re-analysis of the deposited data

Results flagged for a closer look

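For 17 members (38.6%) the melatonin effect differed between the lines by the F test in the joint fit of all 24 arrays, a share close to the 34.3% of all genes. Among the proteases, the adjusted p was 5.69e-10 for CTSL, 1.87e-06 for CTSO, 2.92e-05 for CTSS, 0.000236 for CTSC, 0.0117 for CTSK and 0.0191 for CTSH. CTSL and CTSO rose most in Huh-7 cells, and CTSS fell most in HGC-27 cells. Among the glycosidases it was 2.63e-05 for NEU1, 0.00124 for FUCA1, 0.00183 for MANBA, 0.00339 for GLA and 0.0156 for IDUA. Of these, NEU1, FUCA1 and MANBA were higher in each line other than HepG2, with unequal sizes, whereas GLA and IDUA were called in opposite directions. For LIPA, the acid lipase gene, it was 0.032. Among the membrane proteins it was 1.92e-06 for SCARB2, 0.00182 for LAMP2 and 0.00146 for MCOLN1, and for the receptor IGF2R and the factor MITF it was 0.0026 and 0.0139. The HepG2 values in this test include melatonin replicate 1, and 31 members (70.5%) differed without it, against 53.7% of all genes.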

How the results depend on the processing

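The count of members called was 26 in HGC-27 cells, against 14 in a joint fit of all arrays and 7 with a fold change of at least 1.5. In HCT-8 cells it was 21, against 12 and 3, and in Huh-7 cells 29, against 16 with the fold threshold. The count of members higher in at least 3 lines was 12, against 3 with that threshold. The 2 calls in HepG2 cells became 5 (all higher) with the brightest probe set, 1 with arrays centred on the median, 5 (all lower) when centred on the ERCC probe set, 23 with array weights, 17 in the joint fit, 0 with the replicate block and 0 by the methods' t-test after adjustment, where 11 (limma), 8 (block) and 7 (t-test) reached an unadjusted p under 0.05. The 17 members whose effects differed between lines became 29 with array weights and 30 over the lines other than HepG2. With an array left out, the counts were 25 to 27 in HGC-27 cells, 16 to 19 in HCT-8 cells, 26 to 30 in Huh-7 cells and 0 to 24 in HepG2 cells, 12 to 15 for higher in at least 3 lines and 16 to 31 for differing effects. In HepG2 cells, 24 were called without melatonin replicate 1, 0 without melatonin replicate 2 or any control, and 1 without melatonin replicate 3.

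Directions turned for CTSC (0.048), SGSH (0.0601) and PPT1 (0.09) in HCT-8 cells with arrays centred on the ERCC probe set and for GLA in HGC-27 cells (0.38) with the brightest probe set. In HepG2 cells they turned without melatonin replicate 1 for LGMN (0.96; -0.54 without replicate 2), CTSA (0.31; -1.30 without replicate 2), ACP2 (0.52; -0.71 without replicate 2) and M6PR (0.20; -0.26 without replicate 3), and with array weights for LGMN (0.95) and ACP2 (0.51). Centring on the ERCC probe set moved the median of all genes to 0.14 in HGC-27 cells, 0.20 in HCT-8 cells, -0.16 in Huh-7 cells and -0.20 in HepG2 cells, and centring on the median moved it to -0.12 in Huh-7 cells. The replicate block gave 25 members in HGC-27, 19 in HCT-8 (18 higher, 1 lower) and 29 in Huh-7 cells, 13 higher in at least 3 lines and 15 with differing effects, and 4 of 12 controls correlated best with their own number. Over all genes, 1377 calls in HepG2 cells became 42 with the block, 533 by the t-test, 6051 with array weights and 5850 in the joint fit, and 7219 in HGC-27 cells became 4323 (ERCC) and 4345 (joint fit). The cause was not tested.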
